A study of Mus musculus with 24 samples.

Results

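The genes described here were 10 transcriptional regulators of the cell cycle in the mouse heart: E2f1, E2f2, E2f3, E2f7 and E2f8 of the E2F family, Rb1, Rbl1 and Rbl2 of the retinoblastoma (RB) family, and the mitotic regulators Foxm1 and Mybl2. They were listed by name and not by a threshold on their values, although earlier results of these data were known, and were matched through Ensembl identifiers to symbols. All 10 were found among the 15667 genes listed for uninjected hearts and among the 15327 genes listed for injected hearts, which together hold 16978 genes. All 10 also passed the filter on low values and were tested in both sets of hearts.

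RNA was sequenced from hearts of Xinβ KO mice and wild type (WT) littermates at postnatal day 7.5 (P7.5), with 4 libraries in each of 6 groups. Xinβ, also named Xirp2, encodes a protein of the cardiac intercalated disc, and the germline deletion replaces parts of exons and an intron with a LacZ-Neor cassette in mice crossed to C57BL6, so every cell of the heart carries it. One experiment compared uninjected Xinβ KO and uninjected WT hearts in single-end reads. The other compared 4 injected groups in paired-end reads. In it, WT and Xinβ KO pups received adeno-associated virus serotype 9 (AAV9) under the skin at postnatal day 1, carrying either GFP or human YAP S127A with a Flag tag, a form of YAP that escapes inhibition by the Hippo kinases. These groups are written WT/GFP, Xinβ KO/GFP, WT/YAP and Xinβ KO/YAP. The chicken cardiac TNT promoter drives both vectors, so expression from them is directed to cardiomyocytes, whereas the RNA came from all cells of the tissue. The tissue was named as ventricle in the study's methods and as heart apex in the labels. Nothing in the labels ties replicate numbers to litters.

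E2F proteins bind the promoters of genes for DNA replication and cell cycle entry. E2F1, E2F2 and E2F3 are known mainly as activators, and E2F7 and E2F8 as repressors that are themselves E2F targets and dampen the response. The pocket proteins RB (Rb1), p107 (Rbl1) and p130 (Rbl2) bind E2Fs and hold their targets silent until cyclin-dependent kinases phosphorylate them; p130 is typical of resting cells, and p107 of cycling cells. With p107 or p130 the MuvB core forms the DREAM repressor, and in cycling cells MuvB exchanges these for B-MYB (Mybl2) and then FOXM1 (Foxm1), which switch on genes of G2 and mitosis. Mouse cardiomyocytes leave the cell cycle in the first postnatal days, while other heart cells continue to divide.

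Promoter sequences are shown for 3 members that held, close to the transcription start, the letters of an E2F site or of a cell cycle homology region (CHR), the element through which MuvB binds late cell cycle promoters. RefSeq start sites on GRCm38.p6 gave a window of 250 bases upstream for 8 of the 10 genes, in 10 entries. Foxm1 and Rb1 had no entry. An E2F site was searched as TTTCCCGC, TTTCGCGC, TTTGCCGC or TTTGGCGC and a CHR as TTTGAA or TTCGAA, each on both strands. The last 100 bases before the start are printed 5′ to 3′ on the gene's strand, with E2F sites and CHRs, which did not overlap, in capitals, and Rbl2 is added as the RB family member whose 100 bases held neither.

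Rbl1, chr2:157204535-157204634, minus strand: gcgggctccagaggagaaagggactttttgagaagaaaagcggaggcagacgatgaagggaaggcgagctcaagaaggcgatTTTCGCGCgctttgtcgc

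E2f3, first start, chr13:29986064-29986163, minus strand: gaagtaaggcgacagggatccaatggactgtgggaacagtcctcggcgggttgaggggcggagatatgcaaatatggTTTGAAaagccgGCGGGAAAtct

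E2f8, chr7:48881597-48881696, minus strand: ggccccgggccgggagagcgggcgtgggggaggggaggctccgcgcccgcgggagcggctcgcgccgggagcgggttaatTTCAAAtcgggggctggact

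Rbl2, chr8:91069957-91070056, plus strand: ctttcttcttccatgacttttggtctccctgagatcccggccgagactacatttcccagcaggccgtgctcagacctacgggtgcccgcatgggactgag

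An E2F site stood in the window of 3 of the 8 genes: Rbl1 (18 to 11 bases before the start), E2f3 (11 to 4 bases) and E2f7 (198 to 191 bases). It stood in 1.86% of all 32851 mouse promoter windows of this length, a share per window, whereas E2f2 and E2f3 had 2 windows each. The E2f1 window (chr2:154569427-154569676, minus strand) lay inside the gene span given below. It thus holds no sequence upstream of that span, and its lack of a site does not describe the promoter there. The windows of the second starts of E2f2 and E2f3 also lay inside those genes. A CHR stood in the windows of 4 genes: E2f8 (20 to 15 bases before the start), E2f3 (23 to 18 bases), the second start of E2f2 (31 to 26 bases) and Rbl2 (beginning 201 bases before the start). That motif is short, and 17.1% of all windows held it. A match of letters describes the sequence and is not a measured binding site.

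The libraries held 20490875 to 31154155 estimated reads on listed genes in the uninjected hearts and 15015038 to 19444404 in the injected hearts. Values are CPM, read counts scaled by the authors, and their sums over listed genes differed between libraries. In the uninjected hearts these sums were 1026260 to 1084066 in Xinβ KO and 942566 to 962145 in WT libraries. Xirp2 (chromosome 2, 67446002 to 67526614) lay at or below 0.972 CPM in all 12 Xinβ KO libraries and at or above 56.0 CPM in all 12 WT libraries, as the labels state. Yap1, the endogenous mouse gene, did not differ between YAP and GFP groups (adjusted p = 0.811 in Xinβ KO and 0.933 in WT hearts, limma), and the human transgene is not among the listed genes. The summed CPM of 6 cardiomyocyte markers was 43430 to 70730 in every library. Male and female hearts were mixed, by the study's description, and Ddx3y, a Y-linked gene, was over 40 CPM in 16 libraries, under 5 CPM in 5 and between these in 3. The uninjected genotypes were not balanced for it. Ddx3y was 39.5 to 49.6 CPM in the 4 uninjected WT libraries while uninjected Xinβ KO replicate 4 had 3.68 CPM and the other 3 had 21.7 to 56.2 CPM.

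Among the uninjected hearts 1 library stood apart for these genes. Uninjected Xinβ KO replicate 4, the library with the lowest Ddx3y of its group, had the highest value of the 4 Xinβ KO hearts for 8 of the 10 members. It lay within or above the range of the WT hearts for 7 of the 10, including Rbl2, for which it was not the highest Xinβ KO heart. Xinβ KO replicates 1 to 3 lay below every WT heart for 8 members. Its Xirp2 was 0.519 CPM, at the level of the other Xinβ KO hearts. Calls from the uninjected hearts are therefore given with and without this library. Among the injected hearts, Xinβ KO/GFP replicate 4 was the lowest of its group for 7 members (E2f1, E2f2, E2f7, E2f8, Rbl1, Foxm1 and Mybl2) and the highest for Rbl2, and values without it are given beside the estimates that moved most. In bulk tissue, fewer cells that express a gene and less of its RNA per cell cannot be told apart.

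Levels were first compared between genes, as CPM per kilobase of exon. In uninjected WT hearts E2f1 stood highest (6.68 ± 0.32 CPM per kb, SD, n = 4) and its 4 values lay above those of every other member. Rbl2 (4.42 ± 0.34), E2f3 (4.39 ± 0.08), Foxm1 (4.13 ± 1.2), Rb1 (3.72 ± 0.59) and Rbl1 (3.19 ± 0.51) followed, and neighbours in this order overlapped. E2f8 (2.07 ± 0.36) and Mybl2 (1.88 ± 0.22) overlapped each other, and E2f7 (1.40 ± 0.16) and E2f2 (1.23 ± 0.06) were lowest, without overlap. In uninjected Xinβ KO hearts Rbl2 came first (4.89 ± 1.5 CPM per kb) and E2f1 next (3.34 ± 1.5), and each of the 10 genes overlapped its neighbour in the order. E2f1 was again highest, clear of the next gene, in WT/GFP (7.40 ± 1.2), WT/YAP (7.54 ± 0.97) and Xinβ KO/YAP hearts (6.94 ± 1.2), whereas in Xinβ KO/GFP hearts Rbl2 (4.98 ± 1.6) stood above E2f1 (4.29 ± 2.1) with overlapping values.

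**Figure D1:**
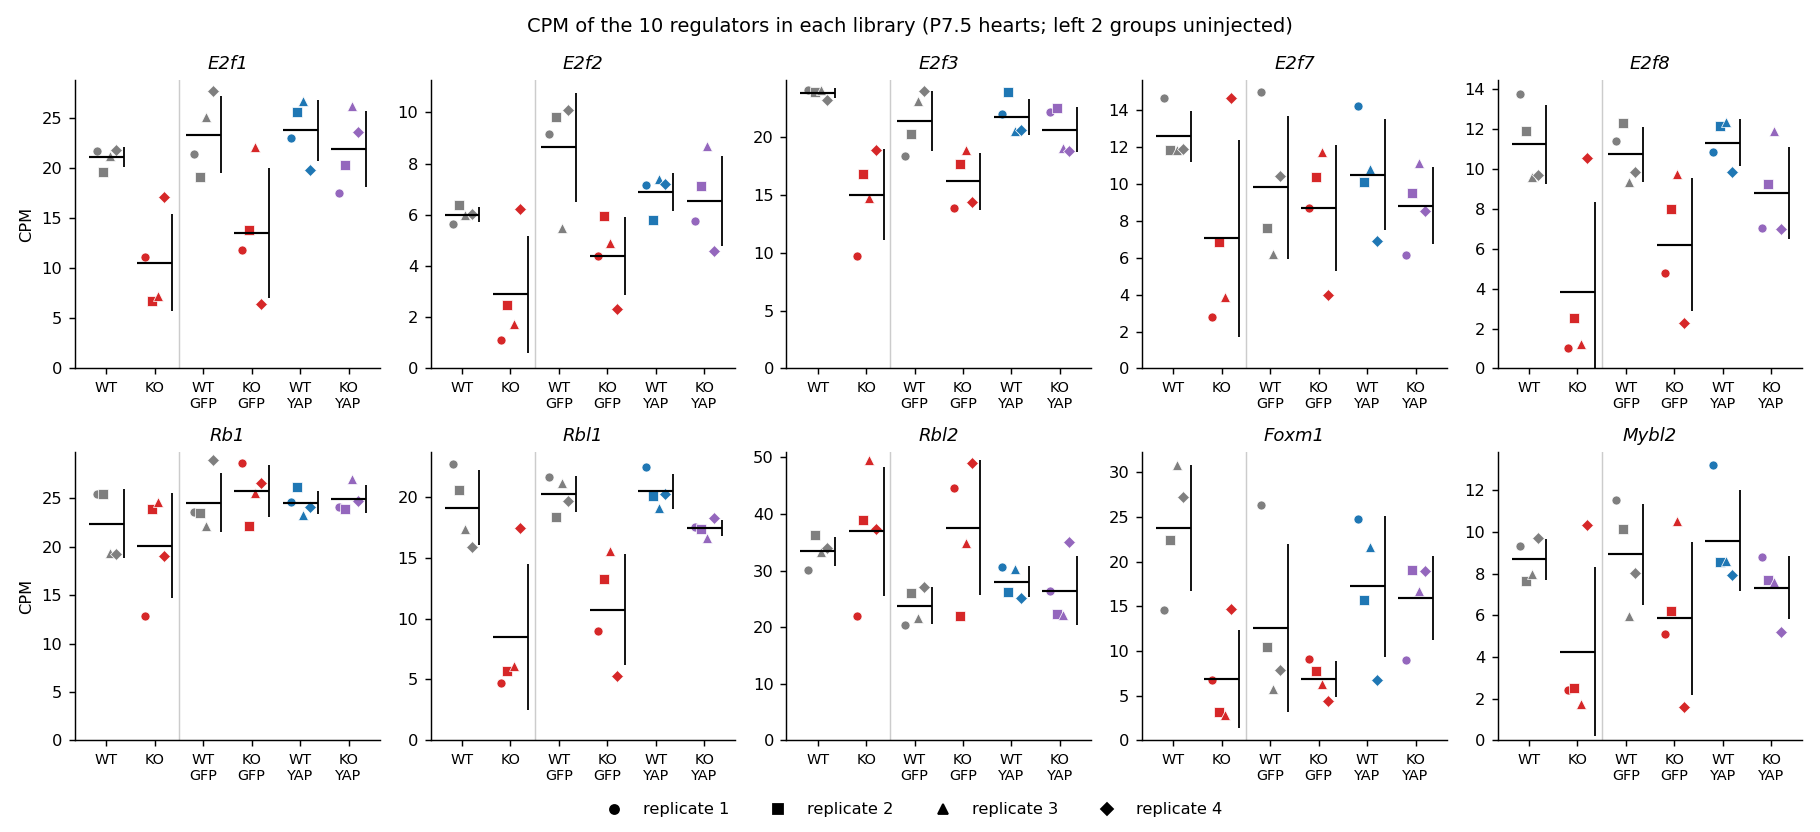
CPM of the 10 members in each of the 24 libraries, 1 panel per gene with its own y axis from 0; each point is a library (symbol by replicate number), the horizontal bar is the group mean and the vertical line is ± 1 SD (n = 4). Replicate 4 of the uninjected KO (red diamond, second column) lies at or near the WT points for most genes, and Rb1 differs little between the 6 groups.

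Uninjected Xinβ KO hearts were compared with uninjected WT hearts to ask how loss of Xinβ alters these regulators. In limma, 2 of the 10 members were called lower at an adjusted p-value under 0.05, E2f1 and Foxm1, and none was called higher. Among all 15598 genes tested 3.46% were called lower and 3.23% higher. The median log2 fold change of the members was -1.02, against 0.0011 over all tested genes, and 9 of 10 had negative values. All log2 fold changes are on the log2(CPM + 1) scale, which understates differences of weakly expressed genes.

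E2f1 (ENSMUSG00000027490, chromosome 2, 154559407 to 154569892), an activator of S-phase genes, measured 11.1, 6.69, 7.19 and 17.2 CPM in the 4 Xinβ KO hearts, in order of replicate, and 21.7, 19.6, 21.2 and 21.8 CPM in the 4 WT hearts. All Xinβ KO hearts lay below all WT hearts, and the mean was 50.0% of that in WT. Its log2 fold change was -1.02 (SE 0.25, adjusted p = 0.0445, limma).

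E2f3 (ENSMUSG00000016477, chromosome 13, 29906575 to 29986063), the other member with separated groups, measured 9.72, 16.8, 14.7 and 18.9 CPM in the Xinβ KO hearts and 24.1, 23.9, 24.1 and 23.2 CPM in the WT hearts. Groups that do not overlap, with Xinβ KO lower, were found for 8.43% of all tested genes. The difference in E2f3 (log2 fold change -0.67, SE 0.18) missed the threshold, with an adjusted p of 0.0587 in limma. E2f2 (ENSMUSG00000018983, chromosome 4, 136172394 to 136196057), the activator E2F with the lowest level, measured 1.12, 2.47, 1.75 and 6.22 CPM in the Xinβ KO hearts and 5.65, 6.39, 5.98 and 6.02 CPM in the WT hearts. Replicate 4 lay among the WT values, the other 3 far below, and the comparison was not called (log2 fold change -1.01, SE 0.32, adjusted p = 0.0984).

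The repressor E2Fs showed the same division among libraries. E2f8 (ENSMUSG00000046179, chromosome 7, 48866429 to 48881596) measured 1.02, 2.54, 1.2 and 10.6 CPM in the Xinβ KO hearts and 13.8, 11.9, 9.61 and 9.73 CPM in the WT hearts (log2 fold change -1.73, SE 0.49, adjusted p = 0.0686). E2f7 (ENSMUSG00000020185, chromosome 10, 110745439 to 110787384) measured 2.77, 6.88, 3.90 and 14.7 CPM in the Xinβ KO hearts and 14.7, 11.9, 11.9 and 11.9 CPM in the WT hearts (log2 fold change -0.97, SE 0.38, adjusted p = 0.17). In both genes 3 Xinβ KO hearts lay below every WT heart and replicate 4 did not.

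Of the pocket proteins, none was called with all 8 hearts. Rbl1 (ENSMUSG00000027641, chromosome 2, 157145893 to 157204534), whose promoter carries an E2F site near its start in the sequence above, measured 4.71, 5.70, 6.09 and 17.4 CPM in the Xinβ KO hearts and 22.7, 20.5, 17.3 and 15.9 CPM in the WT hearts (log2 fold change -1.24, SE 0.34, adjusted p = 0.0587). Replicates 1 to 3 stood far below every WT heart and replicate 4 within the WT range. Rbl2 (ENSMUSG00000031666, chromosome 8, 91070057 to 91123844) measured 21.9, 38.9, 49.5 and 37.3 CPM in the Xinβ KO hearts and 30.1, 36.2, 33.3 and 34.1 CPM in the WT hearts. Its 3 highest Xinβ KO values lay above all WT values and the lowest below them, and the log2 fold change was 0.09 with a 95% interval from -0.40 to 0.57 (adjusted p = 0.846). Rb1 (ENSMUSG00000022105, chromosome 14, 73183673 to 73325822) measured 12.9, 23.8, 24.6 and 19.0 CPM in the Xinβ KO hearts and 25.4, 25.5, 19.4 and 19.2 CPM in the WT hearts. The groups overlapped, and the interval of the Rb1 difference ran from -0.64 to 0.29 on the log2 scale (adjusted p = 0.672).

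Both mitotic regulators had lower means in Xinβ KO hearts, and Foxm1 passed the test. Foxm1 (ENSMUSG00000001517, chromosome 6, 128362967 to 128376146) measured 6.75, 3.23, 2.85 and 14.7 CPM in the Xinβ KO hearts and 14.6, 22.5, 30.8 and 27.2 CPM in the WT hearts. The mean was 29.0% of that in WT, and Foxm1 was called lower (log2 fold change -1.84, SE 0.43, adjusted p = 0.0382, limma), although replicate 4 reached the lowest WT heart. Mybl2 (ENSMUSG00000017861, chromosome 2, 163054687 to 163084688), which encodes B-MYB, measured 2.43, 2.54, 1.75 and 10.3 CPM in the Xinβ KO hearts and 9.34, 7.67, 8 and 9.73 CPM in the WT hearts (log2 fold change -1.13, SE 0.39, adjusted p = 0.122). Here replicate 4 was the highest of the 8 hearts.

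Without Xinβ KO replicate 4, 8 of the 10 members were called lower, all but Rb1 and Rbl2. That library was left out because it stood apart on these same members, so this count is a description. Calls rose over the whole table as well, to 7.98% of all tested genes lower and 5.48% higher, from the 3.46% and 3.23% given above. The log2 fold change of E2f8 was -2.28 (adjusted p = 0.00065), that of Foxm1 -2.25 (adjusted p = 0.00278) and that of Rbl1 -1.62 (adjusted p = 0.000591, limma). Rbl2 was at 0.06 (adjusted p = 0.887) and Rb1 at -0.16 (adjusted p = 0.682). A fit with Ddx3y as a covariate called 7 members lower, where 7.17% of all tested genes were called lower. Replicate 4 was the uninjected library with by far the lowest Ddx3y (3.68 CPM). This fit therefore bears mainly on the same library and is a description too. The calls of E2f1 and Foxm1 in all 8 hearts did not survive every other removal: neither was called without Xinβ KO replicate 2 or 3 or without any one of the 4 WT replicates, and 0 members were then called. With edgeR on the recovered reads 0 members were called, where 2.81% of all genes were called lower, and with DESeq2 4 were called lower, where 6.15% of the 15567 genes with an adjusted p were.

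**Figure D2:**
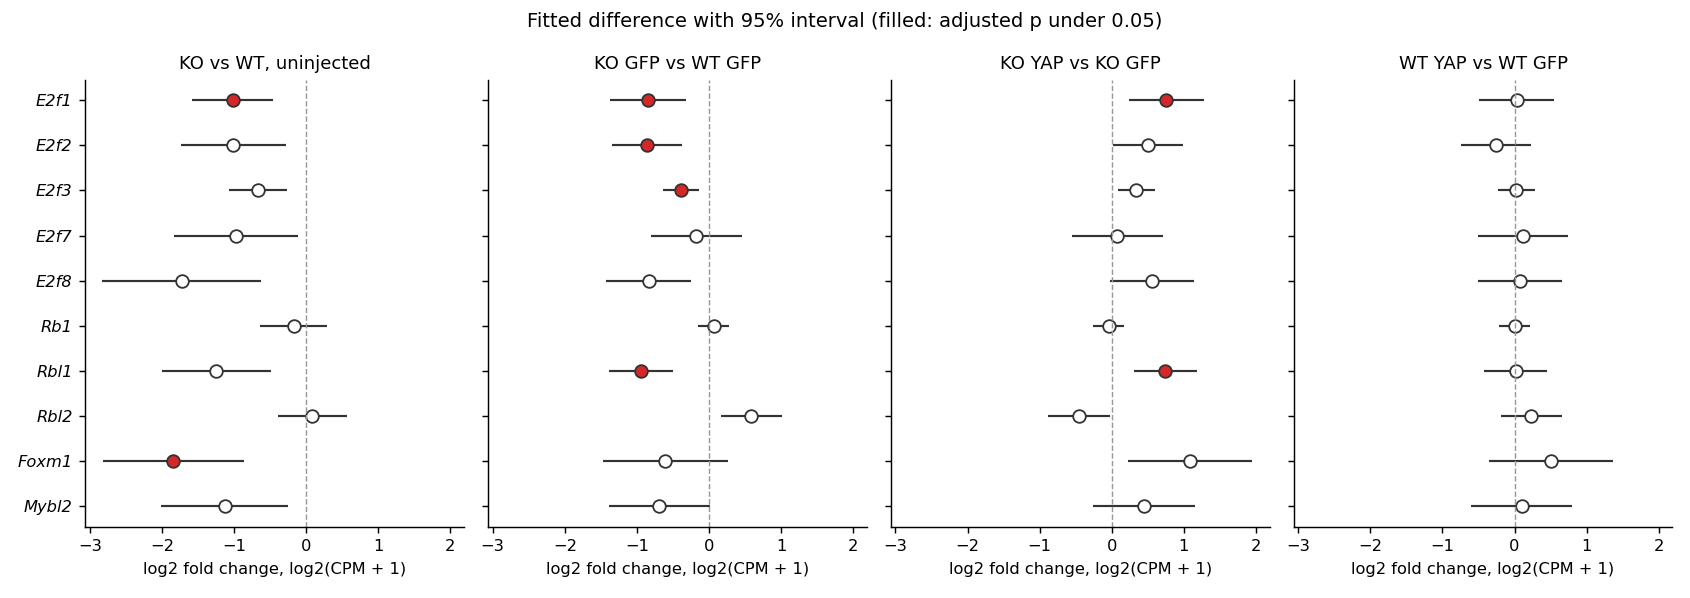
Fitted log2 fold changes, on the log2(CPM + 1) scale, of the 10 members in 4 comparisons; points are estimates, lines are 95% intervals from limma, and filled points have an adjusted p under 0.05. Rb1 lies near 0 in each panel, Rbl2 lies right of 0 where Rbl1 lies left in the KO GFP panel, and in the WT YAP panel every interval includes 0.

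The same genotypes were compared after injection of the control virus. Set against WT/GFP, Xinβ KO/GFP hearts had lower levels of 4 of the 10 members: Rbl1, E2f2, E2f1 and E2f3. None was called higher. Of the 14597 genes tested, 7.22% were called lower and 6.43% higher. The median log2 fold change of the members was -0.65, against -0.0092 over all tested genes, and -0.39 without Xinβ KO/GFP replicate 4.

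Rbl1 measured 8.94, 13.2, 15.5 and 5.29 CPM in the Xinβ KO/GFP hearts and 21.6, 18.4, 21.1 and 19.7 CPM in the WT/GFP hearts, in order of replicate. It was the sole member whose groups did not overlap, a state found, with Xinβ KO lower, for 7.95% of tested genes. It fell by 0.94 on the log2 scale (SE 0.21, adjusted p = 0.0065, limma), and it was called with each of the 8 libraries left out in turn. Without Xinβ KO/GFP replicate 4 its log2 fold change was -0.67 (adjusted p = 0.00815) and Rbl1 was the 1 member called, where 4.51% of tested genes were called lower.

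All 3 activator E2Fs were called lower. E2f1 measured 11.8, 13.8, 22.1 and 6.39 CPM in the Xinβ KO/GFP hearts and 21.5, 19.1, 25.1 and 27.7 CPM in the WT/GFP hearts (log2 fold change -0.85, SE 0.25, adjusted p = 0.0307). E2f2 measured 4.41, 5.95, 4.91 and 2.31 CPM, and 9.14, 9.82, 5.49 and 10.1 CPM in WT/GFP hearts (log2 fold change -0.86, SE 0.23, adjusted p = 0.0204). In both genes 3 Xinβ KO/GFP hearts lay below every WT/GFP heart, and the remaining heart lay within the WT/GFP range. E2f3 measured 13.8, 17.7, 18.9 and 14.4 CPM, and 18.3, 20.2, 23.1 and 24 CPM in WT/GFP hearts, a smaller fall (log2 fold change -0.39, SE 0.12, adjusted p = 0.0414). These 3 calls each went with the removal of some libraries: E2f1 was not called without WT/GFP replicate 1, 3 or 4 or Xinβ KO/GFP replicate 1 or 4, E2f2 without WT/GFP replicate 1, 2 or 4 or Xinβ KO/GFP replicate 4, and E2f3 without WT/GFP replicate 2, 3 or 4 or Xinβ KO/GFP replicate 1 or 4. The E2f1 estimate without Xinβ KO/GFP replicate 4 was -0.56 (adjusted p = 0.0876). E2f1 was also not called by edgeR (adjusted p = 0.0565), nor E2f3 after quantile normalization (adjusted p = 0.0597, limma). When only the WT/GFP and Xinβ KO/GFP libraries were fitted, 0 members were called (Rbl1 adjusted p = 0.064, limma), and the share of all tested genes called lower in that fit was 2.95%.

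Neither repressor E2F was called. E2f8 measured 4.78, 7.98, 9.77 and 2.26 CPM in the Xinβ KO/GFP hearts and 11.4, 12.3, 9.35 and 9.86 CPM in the WT/GFP hearts, and just missed the threshold (log2 fold change -0.84, SE 0.28, adjusted p = 0.0534). Its estimate was -0.50 (adjusted p = 0.153) without Xinβ KO/GFP replicate 4. E2f7 measured 8.69, 10.4, 11.8 and 3.97 CPM, and 15, 7.64, 6.20 and 10.5 CPM in WT/GFP hearts. The E2f7 groups overlapped broadly, with an interval of the difference from -0.81 to 0.45 on the log2 scale (adjusted p = 0.75), and the estimate turned from -0.18 to 0.12 without Xinβ KO/GFP replicate 4.

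Rbl2 stood on the other side. It measured 44.5, 22, 34.9 and 49.0 CPM in the Xinβ KO/GFP hearts and 20.4, 26.0, 21.7 and 27.1 CPM in the WT/GFP hearts. In 3 of 4 Xinβ KO/GFP hearts it exceeded every WT/GFP heart, and the mean was 158% of that in WT/GFP, but the difference was not called by limma (log2 fold change 0.59, SE 0.20, adjusted p = 0.0635). It was called by edgeR (adjusted p = 0.042), by DESeq2 (adjusted p = 0.0168) and without Xinβ KO/GFP replicate 2 (adjusted p = 0.00256). That library had the lowest Ddx3y of its group, 0.588 CPM against 51.6 to 68.1 CPM in the other 3, and with Ddx3y as a covariate in limma Rbl2 was not called (log2 fold change 0.58, adjusted p = 0.0733). Rb1 measured 28.7, 22.2, 25.6 and 26.6 CPM, and 23.5, 23.4, 22.2 and 29.0 CPM in WT/GFP hearts. The Rb1 values overlapped, and the interval of the difference was narrow, from -0.15 to 0.28 on the log2 scale.

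Neither mitotic regulator was called between the GFP groups. Mybl2 measured 5.09, 6.21, 10.5 and 1.6 CPM in the Xinβ KO/GFP hearts and 11.5, 10.2, 5.98 and 8.05 CPM in the WT/GFP hearts (log2 fold change -0.69, SE 0.33, adjusted p = 0.193), and its estimate was -0.28 (adjusted p = 0.538) without Xinβ KO/GFP replicate 4. Foxm1 measured 9.13, 7.78, 6.26 and 4.41 CPM, and 26.4, 10.5, 5.71 and 7.83 CPM in WT/GFP hearts (log2 fold change -0.60, SE 0.41, adjusted p = 0.365). A single WT/GFP heart, replicate 1, held the high Foxm1 value, and without it the estimate was -0.19 (adjusted p = 0.792). The highest WT/GFP library was 4.62 times the lowest, the widest spread of any member in that group. Foxm1 was also the most variable member in uninjected WT and in WT/YAP hearts, where the highest library was 2.12 and 3.67 times the lowest. Its exons overlap those of Tex52 and Gm44596 on the same strand, and neither of these genes is among the listed genes.

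Active YAP was compared with GFP in Xinβ KO hearts to ask whether it moves the same regulators. This comparison uses the Xinβ KO/GFP hearts described above as its reference, so the 2 comparisons share 4 libraries. In Xinβ KO/YAP hearts 2 of 10 members rose, Rbl1 and E2f1, and none fell. Of all tested genes 7.85% were called higher and 6.92% lower. The median log2 fold change of the members was 0.48, against 0.01 over all tested genes, and 0.25 without Xinβ KO/GFP replicate 4.

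Rbl1 was at 17.5, 17.4, 16.6 and 18.2 CPM in Xinβ KO/YAP hearts, above all 4 Xinβ KO/GFP hearts. Groups that do not overlap, with the YAP group higher, were found for 9.02% of tested genes. The mean was 162% of that in Xinβ KO/GFP (log2 fold change 0.74, SE 0.21, adjusted p = 0.0242, limma). The 4 hearts lay close together, the highest 1.10 times the lowest, whereas in Xinβ KO/GFP the highest was 2.93 times the lowest. E2f1 was at 17.5, 20.3, 26.2 and 23.6 CPM in Xinβ KO/YAP, with 2 hearts above every Xinβ KO/GFP heart (log2 fold change 0.76, SE 0.25, adjusted p = 0.0492). That value sat at the threshold: with 1 library left out, E2f1 was called without Xinβ KO/GFP replicate 3 and in none of the other 7 fits. Rbl1 was not called without Xinβ KO/GFP replicate 1 or Xinβ KO/YAP replicate 1, 2 or 4 (adjusted p = 0.0523 to 0.0663). A limma fit of the Xinβ KO/GFP and Xinβ KO/YAP libraries alone called neither Rbl1 (adjusted p = 0.11) nor E2f1 (adjusted p = 0.143), and called 4.08% of all tested genes higher. Both estimates were smaller without Xinβ KO/GFP replicate 4, at 0.47 for Rbl1 (adjusted p = 0.0426) and 0.47 for E2f1 (adjusted p = 0.132), with 5.86% of tested genes called higher.

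The other members did not pass in the model of all 16 hearts. Foxm1 was at 9.02, 19.0, 16.7 and 18.9 CPM in Xinβ KO/YAP, 3 hearts above every Xinβ KO/GFP heart, and had the largest estimate (log2 fold change 1.09, SE 0.41, adjusted p = 0.0857). With these 2 groups fitted alone Foxm1 was the 1 member called (adjusted p = 0.0327, limma), in the fit with 4.08% of genes called higher. E2f3 was at 22.2, 22.5, 19.1 and 18.8 CPM (log2 fold change 0.34, SE 0.12, adjusted p = 0.0679). E2f2 was at 5.75, 7.13, 8.69 and 4.58 CPM (log2 fold change 0.50, adjusted p = 0.155). For E2f3 3 hearts, and for E2f2 2 hearts, exceeded every Xinβ KO/GFP heart. E2f8 was at 7.05, 9.23, 11.9 and 6.98 CPM (log2 fold change 0.55, adjusted p = 0.19) and Mybl2 at 8.80, 7.71, 7.61 and 5.20 CPM (log2 fold change 0.45, adjusted p = 0.39). The estimates of E2f2, E2f8 and Mybl2 were 0.28, 0.22 and 0.04 without Xinβ KO/GFP replicate 4. Rbl2 was at 26.4, 22.4, 22.1 and 35.0 CPM, on average 70.4% of its level in Xinβ KO/GFP (log2 fold change -0.45, SE 0.20, adjusted p = 0.143). Its values overlapped those in Xinβ KO/GFP, and Rbl2 was called lower without Xinβ KO/GFP replicate 2 (log2 fold change -0.68, adjusted p = 0.00871). E2f7 (6.15, 9.52, 11.2 and 8.52 CPM) and Rb1 (24.1, 23.8, 27.0 and 24.7 CPM) gave estimates of 0.08 and -0.04 on the log2 scale, that of E2f7 being -0.22 without Xinβ KO/GFP replicate 4.

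In WT hearts 0 members were called between YAP and GFP by limma, edgeR or DESeq2. Limma also called 0% of the 14597 genes tested, while 1011 genes had a p under 0.05 before adjustment. E2f1 was at 23.0, 25.6, 26.7 and 19.8 CPM in WT/YAP hearts, with an interval of the difference from WT/GFP of -0.49 to 0.55 on the log2 scale. Rbl1 was at 22.4, 20, 19.1 and 20.2 CPM (interval -0.42 to 0.46) and Rb1 at 24.6, 26.1, 23.3 and 24.1 CPM (interval -0.21 to 0.22). The estimates of the other members ran from -0.26 for E2f2 (7.16, 5.79, 7.40 and 7.22 CPM) to 0.51 for Foxm1 (24.8, 15.7, 21.7 and 6.76 CPM), which ran from 0.24 to 0.92 with 1 library left out. The upper bound for Rbl1 lay below its estimate of 0.74 in Xinβ KO hearts. That estimate had an interval of 0.30 to 1.18 and was 0.47 without Xinβ KO/GFP replicate 4. The upper bound for Foxm1, 1.37, lay above its estimate of 1.09 in Xinβ KO hearts. The difference between the YAP effect in Xinβ KO and in WT hearts, tested as an interaction, was called for 0 members in limma, edgeR and DESeq2, where 3.8% of tested genes had a called positive interaction and 3455 genes an unadjusted p-value under 0.05. Its estimates were 0.73 for Rbl1 (SE 0.29, adjusted p = 0.142), 0.73 for E2f1 (SE 0.35, adjusted p = 0.22), 0.76 for E2f2 (SE 0.32, adjusted p = 0.163) and -0.69 for Rbl2 (SE 0.28, adjusted p = 0.152). With Xinβ KO/GFP replicate 4 left out they were 0.46, 0.44, 0.55 and -0.54. The YAP effect was therefore not shown to differ between genotypes for any member.

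Xinβ KO/YAP hearts were also set against both injected WT groups. By limma, edgeR and DESeq2, 0 members were called against WT/GFP, where 0.0206% of tested genes were called in either direction and 888 genes had a p under 0.05 before adjustment, and 0 against WT/YAP, where 0.0411% were called and 1627 genes had a p under 0.05 before adjustment. Rbl1 was nonetheless lower in all 4 Xinβ KO/YAP hearts than in all 4 WT/GFP hearts and all 4 WT/YAP hearts. Separated groups with Xinβ KO/YAP lower were found for 2.32% and 4.72% of tested genes in these comparisons. The Rbl1 mean was 86.3% of that in WT/GFP (log2 fold change -0.20, interval -0.64 to 0.24, adjusted p = 0.89) and 85.2% of that in WT/YAP (log2 fold change -0.22, interval -0.66 to 0.22, adjusted p = 0.708). For E2f8 and Mybl2 3 of 4 Xinβ KO/YAP hearts lay below every WT/YAP heart, at means of 77.6% and 76.5%, with adjusted p-values of 0.632 and 0.717.

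The 2 pocket proteins of the DREAM complex were compared with each other in each heart, as the ratio of Rbl2 to Rbl1 in CPM per kilobase of exon. The ratio was chosen after the values were seen and is given without a test. It was 1.05, 1.40, 1.52 and 1.70 in uninjected WT hearts and 3.69, 5.42, 6.44 and 1.70 in uninjected Xinβ KO hearts. In 3 of the 4 Xinβ KO hearts p130 transcript thus exceeded p107 transcript by more than in any WT heart, and replicate 4 matched the highest WT heart. It was 0.747, 1.13, 0.815 and 1.09 in WT/GFP, 3.95, 1.32, 1.79 and 7.34 in Xinβ KO/GFP, 1.08, 1.04, 1.26 and 0.989 in WT/YAP, and 1.2, 1.02, 1.06 and 1.52 in Xinβ KO/YAP hearts. All Xinβ KO/GFP hearts lay above all WT/GFP and WT/YAP hearts, and the Xinβ KO/YAP hearts overlapped Xinβ KO/GFP and WT/YAP.

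**Figure D3:**
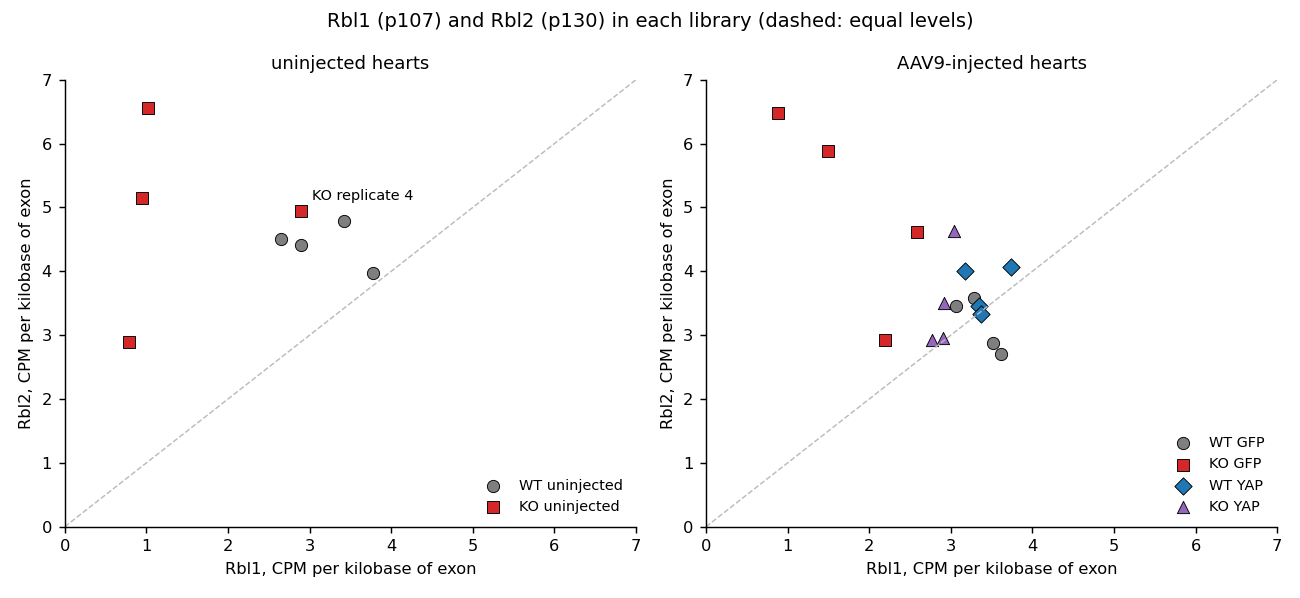
Rbl2 against Rbl1 in each library, both in CPM per kilobase of exon, for the 8 uninjected hearts (left) and the 16 injected hearts (right); each point is a library and the dashed line marks equal levels. In 3 uninjected KO hearts and, less tightly, in the KO GFP hearts Rbl1 lies left of the WT hearts, while uninjected KO replicate 4 and the KO YAP hearts lie near them.

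Correlations between members were read within each set of hearts. Over the 16 injected libraries, which include the lower Xinβ KO/GFP group, Pearson's r of log2(CPM + 1) was 0.914 between E2f1 and Rbl1, 0.895 between E2f8 and Rbl1, 0.886 between E2f1 and E2f8 and 0.875 between E2f8 and Mybl2. Rbl2 ran the other way, with r of -0.726 to E2f2, -0.722 to E2f8 and -0.713 to Rbl1. These values rested in part on Xinβ KO/GFP replicate 4: over the other 15 libraries r was 0.777 between E2f1 and Rbl1, 0.721 between E2f8 and Rbl1, 0.709 between E2f1 and E2f8 and 0.666 between E2f8 and Mybl2, and Rbl2 had r of -0.555 to E2f2, -0.53 to E2f8 and -0.511 to Rbl1. In the 8 uninjected libraries, r was 0.982 between E2f8 and Rbl1 and 0.026 between Rbl1 and Rbl2, so the inverse relation of the injected hearts was not seen there. Without Xinβ KO replicate 4 these were 0.981 and -0.009. Rb1 had its highest r with Rbl2 in both sets, 0.535 and 0.718, the latter 0.758 without that library. Not all pairs were close: between E2f3 and E2f7 r was 0.23 over the 16 injected libraries and -0.143 without Xinβ KO/GFP replicate 4. Between E2f3 and Foxm1 it was 0.248 and 0.033, whereas over the 8 uninjected libraries these 2 pairs had r of 0.912 and 0.715. All these r values are descriptions over libraries that fall into groups, and carry no test.

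The genes outside the 10 that followed each member most closely over the 16 injected libraries were, for E2f1, Tcf19, Mcm2 and Mcm5 (r of 0.956 to 0.96, and 0.979 to 0.99 over the 8 uninjected libraries). For Rbl1 they were Iqgap3, Cdc45 and Atad2 (0.983, 0.977 and 0.975), for E2f8 Mad2l1, Pclaf and Atad2 (0.951, 0.948 and 0.947), for E2f2 Gas2l3, Arhgap11a and Trim59 (0.914, 0.9 and 0.896) and for Mybl2 Ticrr, Pask and Kif15 (0.967, 0.918 and 0.917). Each of these had an r of at least 0.93 over the 8 uninjected libraries, and of 0.772 to 0.961 over the injected libraries without Xinβ KO/GFP replicate 4. For the remaining members the nearest gene is given. E2f3 was nearest Dach1 (0.923, and 0.966 in uninjected hearts), Rbl2 nearest Igf2r (0.938 and 0.94), Rb1 nearest Mid2 (0.812 and 0.914) and Foxm1 nearest Sgk3 (0.811 and 0.607). E2f7 was nearest Scly (0.874), and over the uninjected libraries that r was -0.302. Without uninjected Xinβ KO replicate 4 the r of Scly was -0.169, that of Sgk3 0.601 and that of Cdc45 0.929.

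The partners and targets of these regulators were then read from 5 gene lists. Among the other E2F and dimerization partner genes (E2f4, E2f5, E2f6, Tfdp1 and Tfdp2) only Tfdp1 was called lower in uninjected Xinβ KO hearts, at 32.5 ± 3.4 CPM against 45.5 ± 4.0 CPM (SD, n = 4, adjusted p = 0.0388, limma), and 0 of 5 were called in Xinβ KO/GFP. Of the 6 MuvB core and related MYB genes, 0 were called in uninjected hearts and Lin9, a MuvB subunit, fell in Xinβ KO/GFP, at 5.64 ± 1.2 CPM against 10.2 ± 1.1 CPM (adjusted p = 0.0037). In Xinβ KO/YAP hearts Lin9 was at 9.86 ± 2.0 CPM and rose against Xinβ KO/GFP (adjusted p = 0.00585), as did Mybl1 (7.64 ± 1.7 CPM against 3.72 ± 1.3 CPM, adjusted p = 0.0302). The interaction was called for Lin9 (estimate 0.76, adjusted p = 0.0445), where 3.8% of tested genes had a called positive interaction. Over all tested genes, 3.46% were called lower in uninjected Xinβ KO, 7.22% lower in Xinβ KO/GFP and 7.85% higher with YAP in Xinβ KO hearts. Without uninjected Xinβ KO replicate 4, Tfdp1 remained the 1 partner gene called lower in uninjected hearts (adjusted p = 0.0176), and 3 MuvB and MYB genes were called lower, Lin9, Lin54 and Mybl1. Without Xinβ KO/GFP replicate 4, Lin9 was called in both injected comparisons and Mybl1 was not called with YAP.

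Of the 15 kinases, cyclins and inhibitors that act on pocket proteins, 13 were tested, since Cdkn2a and Cdkn2b were not listed. In uninjected Xinβ KO hearts, where 3.46% of all tested genes were called lower and 3.23% higher, 2 of the list fell and 1 rose. The largest fall was in Ccne2, a cyclin E (3.06 ± 2.1 CPM against 7.60 ± 1.2 CPM, adjusted p = 0.0446), and the rise was in Cdkn1a, the CDK inhibitor p21 (115 ± 24 CPM, and 39.4 ± 4.2 CPM in WT, log2 fold change 1.51, adjusted p = 0.00145). Without replicate 4 the counts were 6 lower and 1 higher, with Ccne2 (adjusted p = 0.000816) and Cdkn1a (adjusted p = 0.00054) again among them. In that fit 7.98% of all tested genes were called lower and 5.48% higher. In Xinβ KO/GFP hearts, where 7.22% of all tested genes were called lower and 6.43% higher, 3 of the list fell and 2 rose. Cdkn2c, the CDK inhibitor p18, showed the largest fall on the log2(CPM + 1) scale (21.9 ± 8.2 CPM against 39.9 ± 3.2 CPM, adjusted p = 0.00433), while by mean CPM Ccne2, at 52.5% of WT/GFP, lay below Cdkn2c, at 54.8%, and Cdkn1a again the largest rise (105 ± 20 CPM, and 49.3 ± 6.4 CPM in WT/GFP, log2 fold change 1.06, adjusted p = 0.000288). With active YAP in Xinβ KO hearts, where 7.85% of all tested genes were called higher and 6.92% lower, 2 of the list rose and 1 fell. Cdkn1a fell to 74.7 ± 13 CPM (adjusted p = 0.0385), and Cdkn2c (34.5 ± 5.2 CPM, adjusted p = 0.0205) and Ccnd2, a cyclin D (288.5 ± 35 CPM against 182.7 ± 28 CPM, adjusted p = 0.00112), rose. Ccnd2 was also the 1 gene of this list with a called interaction (estimate 0.71, adjusted p = 0.014), where 3.8% of tested genes had a called positive interaction. Tfdp2, a dimerization partner, was at 14.9 ± 11 CPM in Xinβ KO/YAP and 67.4 ± 46 CPM in Xinβ KO/GFP hearts, and was called lower (adjusted p = 0.0253) with a spread near its mean in both groups. Without Xinβ KO/GFP replicate 4 the 5 calls between the GFP groups remained, whereas with YAP only Ccnd2 of the kinases, cyclins and inhibitors was called, Tfdp2 was not, and E2f4 was called higher.

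Known targets of the regulators were read next. Of 20 G1/S genes known as E2F targets, 6 fell in uninjected Xinβ KO hearts and 13 in Xinβ KO/GFP hearts, and all 20 had negative log2 fold changes in both (medians -1.03 and -0.80). Over all tested genes 3.46% and 7.22% were called lower in these comparisons. Brca1, which acts in DNA repair, was the called gene with the largest fall on the log2(CPM + 1) scale in uninjected hearts (3.20 ± 3.1 CPM, and 10.1 ± 1.9 CPM in WT, log2 fold change -1.61, adjusted p = 0.0385), and Rrm2, a subunit of ribonucleotide reductase, in Xinβ KO/GFP (37.3 ± 21 CPM, and 90.9 ± 7.2 CPM in WT/GFP, log2 fold change -1.44, adjusted p = 0.00322). By mean CPM in uninjected hearts Cdc6, at 24.8% of WT, lay below Brca1, at 31.8%. Of 20 G2/M genes known as targets of B-MYB, MuvB and FOXM1, 0 were called in uninjected hearts and 18 fell in Xinβ KO/GFP hearts. All 20 again had negative values in both comparisons, with medians of -1.38 and -1.26. Ube2c, a ubiquitin-conjugating enzyme of mitotic exit, had the largest fall on that scale in Xinβ KO/GFP (17.1 ± 15 CPM, and 43.5 ± 5.7 CPM in WT/GFP, log2 fold change -1.68, adjusted p = 0.0102), and by mean CPM Ccnb1, at 34.6% of WT/GFP, lay below Ube2c, at 39.3%. Without uninjected Xinβ KO replicate 4, 19 of the G1/S and 20 of the G2/M genes were called lower in uninjected hearts, Brca1 among them (adjusted p = 0.000334), in the fit where 7.98% of all tested genes were. These counts too are a description, since the library was left out for standing apart on genes of this kind. In Xinβ KO/GFP hearts 7 to 18 and 14 to 20 genes were called with 1 library left out, fewest G1/S genes without WT/GFP replicate 1 or Xinβ KO/GFP replicate 1 or 4, and the medians without the last were -0.51 and -0.92. With any 1 of the other 7 uninjected libraries left out instead, 0 to 4 of the G1/S genes and 0 of the G2/M genes were called.

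In Xinβ KO/YAP against Xinβ KO/GFP hearts 9 G1/S and 14 G2/M genes rose, with medians of 0.60 and 1.09, and none fell, where 7.85% of all tested genes were called higher. With 1 library left out the counts were 3 to 14 and 11 to 19, with fewest G1/S genes without Xinβ KO/YAP replicate 3 and most without Xinβ KO/GFP replicate 3. Without Xinβ KO/GFP replicate 4 they were 5 and 11, with medians of 0.37 and 0.77. In WT/YAP against WT/GFP hearts 0 of either list were called, with medians of 0.05 and -0.06. The interaction was called higher for 1 of 20 G1/S genes, Slbp, and 5 of 20 G2/M genes, Aurka, Cdc20, Cenpf, Nek2 and Prc1. Over all tested genes 3.8% had a called positive interaction, and the G1/S count is near that share. Values of these interactions without Xinβ KO/GFP replicate 4 are not given here. Rrm2 was at 71.9 ± 4.9 CPM and Ube2c at 34.8 ± 5.2 CPM in Xinβ KO/YAP hearts. Neither was called against WT/GFP (adjusted p = 0.874 and 0.906). Of the lists, 18 of 20 G1/S and 20 of 20 G2/M genes had negative estimates in Xinβ KO/YAP against WT/GFP (medians -0.18 and -0.22). Against WT/YAP these counts were 18 and 19 (medians -0.18 and -0.21), and 0 genes of either list were called in both comparisons.

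**Figure D4:**
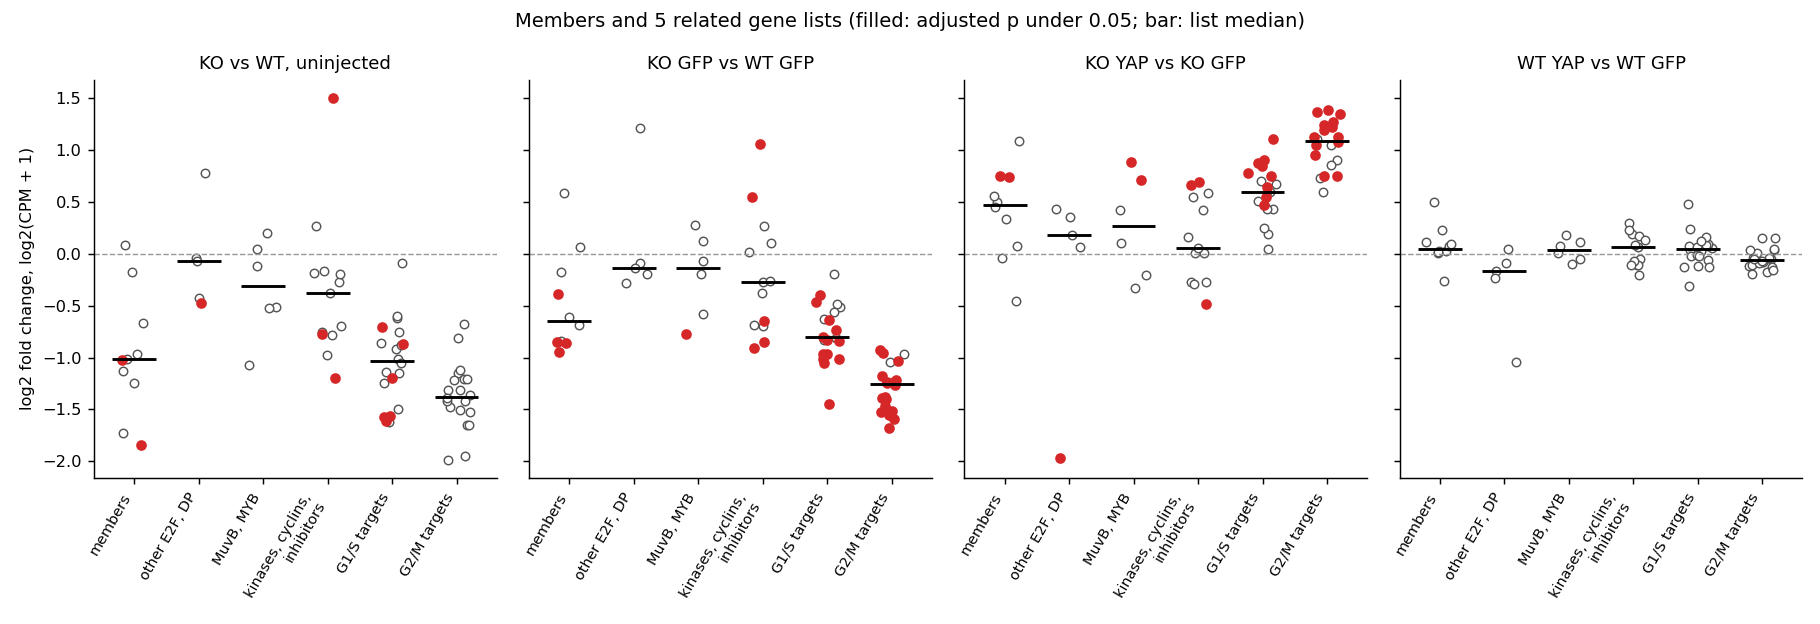
Log2 fold changes, on the log2(CPM + 1) scale, of the 10 members and of the tested genes of 5 related lists in 4 comparisons; each point is a gene, filled where the adjusted p is under 0.05, and the bar is the list median. The G1/S and G2/M genes lie below 0 in both KO against WT panels and above 0 in the KO YAP against KO GFP panel, and lie around 0 in the WT YAP panel.

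Markers of other cell types moved in the same comparisons. Over all tested genes, 3.46% were called lower in uninjected Xinβ KO, 7.22% lower in Xinβ KO/GFP and 7.85% higher with YAP in Xinβ KO hearts. The summed CPM of 4 macrophage markers was 37.7 to 48.5 in uninjected WT and 13.3 to 21.4 in uninjected Xinβ KO hearts, with 3 of 4 called lower, and 51.5 to 76.8 in WT/GFP, 19.2 to 32.7 in Xinβ KO/GFP (4 of 4 lower) and 53.1 to 68.0 in Xinβ KO/YAP (4 of 4 higher than Xinβ KO/GFP). That of 5 fibroblast markers was 1436 to 1526 against 798 to 1036 in uninjected hearts (2 of 5 lower), 1322 to 1561 in WT/GFP, 829 to 1031 in Xinβ KO/GFP (3 of 5 lower) and 1334 to 1702 in Xinβ KO/YAP (3 of 5 higher). Of 5 endothelial markers, 1 was lower in uninjected Xinβ KO and 3 in Xinβ KO/GFP hearts, and 2 were higher in Xinβ KO/YAP than in Xinβ KO/GFP. Of 4 erythroid markers, 3 were lower in Xinβ KO/GFP, and the summed level was 732 to 1767 against 1969 to 5137 CPM in WT/GFP, while 0 of 4 were called with YAP. Smooth muscle and pericyte markers had 1 of 4 lower in uninjected Xinβ KO and in Xinβ KO/GFP hearts, and 3 of 4 higher in Xinβ KO/YAP. Of the 6 cardiomyocyte markers 2 were higher in uninjected Xinβ KO and in Xinβ KO/GFP hearts, and 2 were lower in Xinβ KO/YAP than in Xinβ KO/GFP. Against WT/GFP or WT/YAP, 0 of these markers were called in Xinβ KO/YAP hearts. The summed erythroid level there, 1090 to 1237 CPM, nonetheless lay below every WT/GFP and every WT/YAP library (1526 to 2273 CPM), with 4 of 4 markers at negative estimates against both (medians -1.11 and -0.59). Without uninjected Xinβ KO replicate 4 the uninjected counts were the same except for 2 endothelial markers lower. Without Xinβ KO/GFP replicate 4, 2 endothelial and 2 erythroid markers were lower in Xinβ KO/GFP and 2 smooth muscle and pericyte markers higher with YAP, and the other counts were the same. The part of these cell types in the differences of the 10 regulators and their targets was not tested.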

How the data were processed

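RNA was measured in 24 mouse heart libraries, 4 per group, grouped by the labels. Per the study's methods and the submitters' processing notes, the authors used cutadapt 2.3 for trimming, HISAT2 2.1.0 for alignment against GRCm38, StringTie 1.3.4 for gene quantification and edgeR 3.26.1 for CPM (scaled read counts). The deposited CPM, treated as a scaled signal because columns sum to 942566 to 1134439, were used as given. Whole reads were recovered from the CPM steps (100.0% of values whole, within 0.1 read). These are estimates from StringTie coverage, and intervals of counting error were not computed. Uninjected and injected hearts were deposited as separate tables and were tested separately.

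Values were tested as log2(CPM + 1) with limma 3.58.1 (R 4.3.3), with a trend and Benjamini-Hochberg adjustment over all tested genes, at a threshold of 0.05. Genes over 1 CPM in at least 4 of 8 or 8 of 16 libraries were tested. The 16 injected libraries shared 1 model. edgeR 4.0.16 and DESeq2 1.42.0 on recovered reads, other scalings, filters and left-out libraries were alternatives. Scripts were tested on simulated data. The members and lists were chosen with earlier results of these data known. By a rule, all members were named, and from each list the called genes with the largest changes, genes of counts up to 5, and the 3 genes closest to each member. Each library carries its own code, and the study states that sequencing used independent biological replicates where possible, but no label ties a library to an animal, so p-values measure the spread between libraries.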

Additional observations from a re-analysis of the deposited data

Results flagged for a closer look

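In groups of 4 libraries, a library was singled out when its gap to the nearest other value, as a share of the group's range, exceeded Dixon's critical value. This happened in 6 of 60 combinations of member and group, where chance gives about 3. Uninjected Xinβ KO replicate 4 accounts for 3 of them: E2f8 at 10.56 CPM against 1.02 to 2.536 CPM in the other Xinβ KO hearts, Rbl1 at 17.39 CPM against 4.712 to 6.094 CPM, and Mybl2 at 10.32 CPM against 1.748 to 2.536 CPM. This is also the Xinβ KO library with the lowest Ddx3y of its group, 3.68 CPM. The part of that difference was not tested, since the fit with Ddx3y as a covariate bears mainly on this same library.

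The others were single values. E2f7 was at 14.7 CPM in uninjected WT replicate 1, against 11.87 to 11.91 CPM in the other 3. In WT/YAP hearts, E2f2 was at 5.789 CPM in replicate 2 against 7.164 to 7.399 CPM, and Mybl2 was at 13.2 CPM in replicate 1 against 7.941 to 8.611 CPM.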

How the results depend on the processing

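The number of members called, 2 in uninjected Xinβ KO against WT hearts, was 0 with edgeR, 4 with DESeq2, 0 with a replicate block and 7 with Ddx3y as a covariate, and 0 to 8 with 1 library left out. The 4 called in Xinβ KO/GFP against WT/GFP became 0 when only those 2 groups were fitted (Rbl1 adjusted p = 0.064) and 1 to 6 with 1 library left out. The 2 called in Xinβ KO/YAP against Xinβ KO/GFP became 1 with a pseudocount of 0.1, quantile normalization, limma without a trend, edgeR or Ddx3y as a covariate, which kept Rbl1, and 0 to 4 with 1 library left out. With only those 2 groups fitted 1 member was called, Foxm1 (adjusted p = 0.0327), and neither Rbl1 (0.11) nor E2f1 (0.143). In the interaction the 0 became 0 to 2 with 1 library left out. No called value changed sign under the alternatives run.

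Target counts with 1 library left out, an alternative chosen after seeing the data, were 0 to 19 G1/S and 0 to 20 G2/M genes in uninjected hearts, 7 to 18 G1/S genes in Xinβ KO/GFP and 3 to 14 G1/S genes in Xinβ KO/YAP against Xinβ KO/GFP. The other list, marker and correlation values without uninjected Xinβ KO replicate 4 or Xinβ KO/GFP replicate 4 were also added after seeing the data. The causes were not tested. Libraries with the same replicate number correlated between -0.191 and 0.137 across groups, so the numbers were not taken as pairs; besides the count above, the block moved E2f3 (adjusted p = 0.0646) and E2f8 (adjusted p = 0.0296) across the threshold in Xinβ KO/GFP. Foxm1 shares exon sequence with neighbours, and the libraries kept strand per the study's methods, but whether the counting used it is not given in the sources used here, so reads of E2f7, E2f8, Rb1 and Rbl2 cannot be told apart from those of opposite-strand genes if strand was not used.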
